A study of Rattus norvegicus with 30 samples.

Results

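Messenger RNA of 10 genes that join, divide and clear mitochondria was measured in whole hearts of untreated rats. The genes were the fusion GTPases Mfn1, Mfn2 and Opa1, the fission genes Dnm1l, Fis1 and Mtfp1, and the mitophagy genes Pink1, Park2, Bnip3 and Bnip3l. They were taken by name from the normalized tables of the 3 ages, 10 of 24752 gene names, and Mtfp1 was found there under its older name Mtp18. Each table held 15 rows for these names, and where a name had several rows the one with the highest mean was used.

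The study asked how expression of mitochondria-related genes in the heart differs between the sexes at different ages. It used F344 rats, an inbred Fischer strain, from the breeding colony of the National Center for Toxicological Research. There were 6 groups of 5 rats, females and males that were 8 weeks (young), 21 weeks (adult) or 78 weeks (old) of age, with 1 single-colour Agilent array per rat. All rats were untreated controls on one diet, and sex and age are the only differences that the labels give. By the study's methods rats of different ages were processed in different batches, and the scanner files show that each slide held both sexes in equal number. One slide held rats of 8 and 78 weeks. All young arrays and the old ones of replicates 1 to 3 were scanned on the first of 2 scan days, and all adult arrays and the old ones of replicates 4 and 5 on the second. Females sat at positions 2 or 4 of a slide and males at 1 or 3, so sex and array position cannot be told apart.

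Mitochondria in heart muscle are remodelled by opposing membrane events. Mfn1 and Mfn2 fuse the outer membranes of neighbouring mitochondria and Opa1 fuses the inner membranes, whereas the dynamin-related GTPase Dnm1l (Drp1), recruited to outer membrane proteins such as Fis1, constricts and divides the organelle. Damaged mitochondria are removed by mitophagy, in which the kinase Pink1 builds up on a depolarized mitochondrion and activates the ubiquitin ligase Parkin (Park2), or in which the outer membrane receptors Bnip3 and Bnip3l (Nix) bind the autophagosome directly.

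All 8 cardiomyocyte markers examined (Myh6, Tnnt2, Actc1, Tnni3, Ryr2, Mybpc3, Myl2 and Pln) were well above background on every array, as the label whole heart implies. The 75th percentile of the processed signal, by which each array was scaled, lay between 98.0 and 171 in young, 39.9 and 123 in adult and 83.5 and 124 in old rats. Of the 30 arrays, 2 were at odds with their sex label in the Y-linked genes Ddx3y and Eif2s3y, both of old rats. The array labelled female replicate 2 had Ddx3y at -0.90 and Eif2s3y at 1.36 (log2 of the scaled signal), and that labelled male replicate 3 had them at -5.48 and -5.60. Ddx3y lay between -5.99 and -5.05 in all other females and between -1.28 and -0.57 in all other males. The labels of both arrays were kept, and the 78-week differences of the members are also given without them. Of the adult males, replicates 2 and 5 stood apart from the other 3 in Mtfp1, Fis1 and Bnip3, and the adult differences of the members are also given without these males, a choice made after seeing the data. The adult fits without them used values rebuilt from the scanner files, since the numbers of the adult male columns in the table do not match those of the replicates. Over all probes their median absolute distance from the group median was 0.372 and 0.257 log2, against 0.104 to 0.255 on the other 3, and replicate 2 had the lowest 75th percentile of all 30 arrays.

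Sequences of the probes show what the rows of a name measured. Positions are given in rat build rn3, as on the array, and strands follow the order in which the array lists start and end. Of the 21 probes for these genes 20 had a position, and 6 of them crossed an intron, since they spanned more genome than their 60 bases. Mfn2, Bnip3 and Bnip3l each had a bright row and a dim row whose probes lay on opposite strands of the same locus. For Mfn2 the bright probe (chr5:164961301-164961360, minus strand) and the dim probe (chr5:164961320-164961379, plus strand) shared 41 bases as reverse complements. The first 30 of these on the plus strand, at chr5:164961320-164961349, are printed in capitals for both probes because they are the same stretch read in opposite directions.
Mfn2 bright row: AGAGAGCACTTTAGTTTCTTGCTGCTAATT
Mfn2 dim row: AATTAGCAGCAAGAAACTAAAGTGCTCTCT
The dim Mfn2 row lay between 0.0732 and 0.227 over the 3 tables and was well above background on 28 of 30 arrays.

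The dim rows of Bnip3 and Bnip3l were read by neighbouring probes rather than overlapping ones. The Bnip3 probes (bright chr1:198833427-198833486, minus strand, dim chr1:198833260-198833319, plus strand) lay 107 bases apart, and the Bnip3l probes (bright chr15:46532461-46532520, minus strand, dim chr15:46532783-46532842, plus strand) lay 262 bases apart. The first 30 bases of each probe are shown so that the rows of these names can be told apart.
Bnip3 bright row: ggttatttgtaaaggcctcttactttatga
Bnip3 dim row: tacagctgattttaaaagcacacaaaattt
Bnip3l bright row: acatgcatccttcgtctgtctcttcgtcag
Bnip3l dim row: ataggacaatctgttttcactcaacaagaa
Both plus-strand probes were well above background on 0 of 30 arrays, and both minus-strand probes on 30 of 30. The first row of Bnip3l in each table was the dim one, and at 78 weeks it lay at 0.0103 to 0.0300 in the 10 rats, not well above background in either sex, so that no fold is given for it. The study reported Bnip3l as significantly higher in old males under the target sequence of this dim row. That row separated the labelled sexes at 78 weeks (exact permutation p = 0.00794), whereas the bright row differed by -0.22 log2, female minus male (exact permutation p = 0.0714). A further Bnip3 row, at 1.52 to 4.15 over the 3 tables, could not be tied to a probe and was not used. Other gene names with several rows at 8 weeks were examined where the brightest row was well above background on all 10 arrays of that age. Dimmer rows were counted if they lay on the same chromosome within 100000 bases. Of 1878 such rows on the opposite strand 49.1% were not well above background on any of these 10 arrays. Of 1309 on the same strand it was 18.8%, which is a description without a test.

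Dnm1l also had a dim row, here for another transcript, whose probe had no position. Its probe is written for transcript variant 4 and begins with the 7 bases, in capitals, that end the bright probe, which crosses an intron at chr11:86686162-86690701 on the minus strand.
Dnm1l bright row: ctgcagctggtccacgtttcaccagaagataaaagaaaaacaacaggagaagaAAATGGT
Dnm1l variant 4 row: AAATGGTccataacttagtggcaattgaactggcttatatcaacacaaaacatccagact
The variant probe was well above background on 0 of 30 arrays and the bright probe on 30 of 30. A probe each is also shown for Mfn1 and Mtfp1, genes called in the age comparison. It is the second probe of the gene, which the table averaged with the first. The age levels and calls come from the first probe, and the second gave the same direction with age. The Mfn1 probe lies at chr2:118714083-118715511 (plus strand, across an intron) and the Mtfp1 probe at chr14:84745130-84745189 (minus strand).
Mfn1: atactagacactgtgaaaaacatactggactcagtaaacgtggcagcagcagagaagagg
Mtfp1: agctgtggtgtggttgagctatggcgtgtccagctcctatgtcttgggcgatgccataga
Park2 had a pair of probes and neither was well above background on any of the 30 arrays. Its table values ran from 0.00995 to 0.0478, and it was therefore given no fold and no place in the counts of members with a level.

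**Figure D1:**
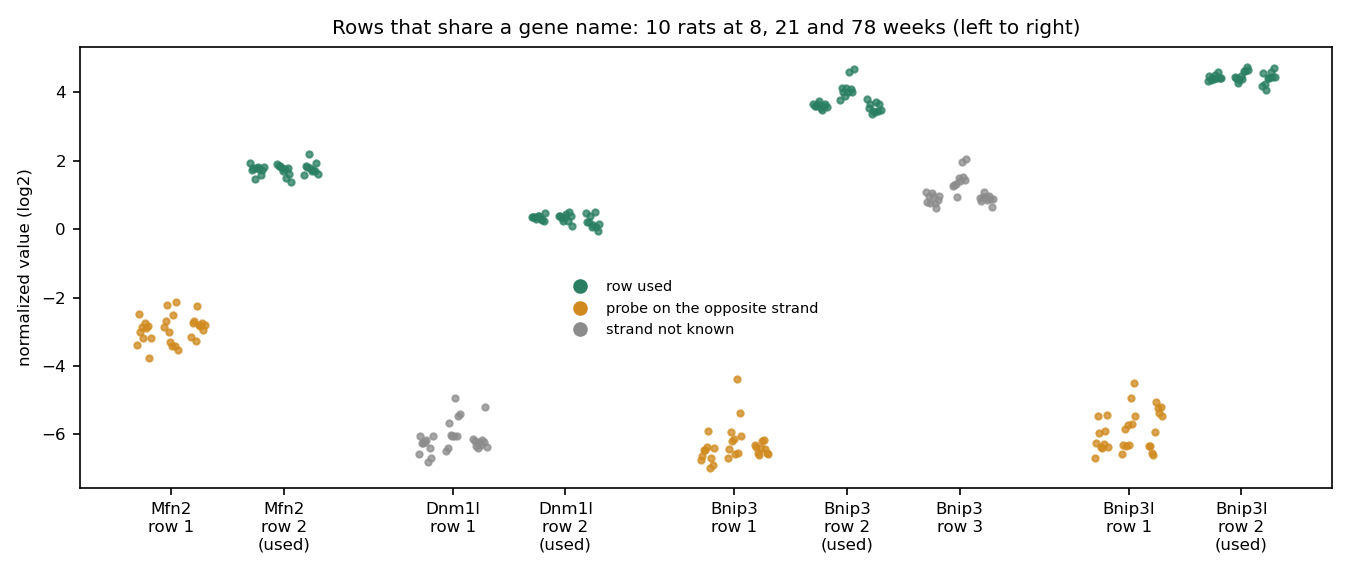
Normalized values (log2) of the table rows that share a gene name, for Mfn2, Dnm1l, Bnip3 and Bnip3l, with 1 point per rat and the 8-, 21- and 78-week rats of a row from left to right. The rows used (green) lie above the other rows of their name at every age, and the opposite-strand rows of Bnip3 and Bnip3l (orange) and the variant row of Dnm1l (grey) were well above background on 0 of 30 arrays.

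Sex differences in these genes were small, and none passed the adjusted test at any age. limma called 0 of 10 members at an adjusted p under 0.05 at 8 weeks, where it called 0.112% of all gene names, 0 at 21 weeks, where it called 0.0732%, and 0 at 78 weeks, where it called 0%. At an unadjusted p under 0.05 limma gave 1, 1 and 0 members, beside 6.19%, 16.8% and 5.87% of all names. The methods' t-test gave 3, 3 and 1 members at that threshold, beside 1620 of 23268, 3916 of 23227 and 1380 of 22458 names. Mean levels were higher in females for 5 of 9 members above background at 8 weeks, 4 at 21 weeks and 7 at 78 weeks, as for 48.1%, 38.3% and 49.8% of all names. The sexes did not overlap in 0, 1 and 0 members, beside 1.5%, 4.37% and 0.908% of all names. Without the pair of arrays at odds with the labelled sex limma called 0 members at 78 weeks (0.0356% of all names) and 3 had an unadjusted p under 0.05 (8.83%). Without male replicates 2 and 5 it called 0 at 21 weeks (0.0216%), and the median of all names at that age was -0.01, against -0.12 with all males. Among the 9 members above background, the largest difference between the sexes was 0.18 log2 at 8 weeks, 0.60 at 21 weeks and 0.23 at 78 weeks. The 95% intervals of the differences reached 0.11 to 0.21 log2 to either side at 8 weeks, 0.24 to 0.40 at 21 weeks and 0.20 to 0.28 at 78 weeks, so sex differences smaller than these were not resolved with 5 rats per sex. In whole heart RNA, fewer cells of a type and less RNA per cell cannot be told apart. Differences are given as female minus male on the log2 scale and values as signal divided by that array's 75th percentile. Exact permutation tests were two-sided, unadjusted and over all exchanges of sex between the 10 rats of an age. There were 30 such tests for the 10 members over all ages together. The same test was also run on each of the 21 probes at each age, and on the members without both old arrays at odds. The p values of single probes and of those fewer rats are therefore additional to the 30.

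Of the fusion genes, Mfn1, an outer membrane fusion GTPase, had values of 1.74, 1.63, 1.80, 1.57 and 1.76 in the young females and 1.64, 1.54, 1.53, 1.64 and 1.54 in the young males. Its level was higher in 3 females than in any male, but the ranges overlapped (difference 0.11, SE 0.06, exact permutation p = 0.0476, limma adjusted p = 0.878). In adult rats the females ran from 1.51 to 1.71, and 4 of the males from 1.53 to 1.60 with the remaining one at 1.07. The difference was 0.14 (SE 0.14, exact permutation p = 0.262), and it was 0.07 (SE 0.10) without male replicates 2 and 5. In the scanner values the low male was replicate 5, at 3.96 at the brighter probe, against 7.44 to 8.02 in the other males. That probe gave a difference of 0.36 with no overlap of the sexes (exact permutation p = 0.00794), whereas the other probe of the row gave -0.05 (exact permutation p = 0.516). At 8 weeks the probes gave 0.13 (exact permutation p = 0.00794) and 0.11 (exact permutation p = 0.23). In old rats Mfn1 was 1.30, 1.12, 1.26, 1.46 and 1.12 in females and 1.15, 1.09, 1.18, 1.28 and 1.15 in males, a difference of 0.09 (SE 0.10) within the spread of the rats, and 0.13 without both arrays at odds with their label.

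Mfn2, the partner of Mfn1 that also tethers mitochondria to the endoplasmic reticulum, was at 2.73 to 3.79 in young females and 2.999 to 3.505 in young males, with means that differed by 0.00 log2 (SE 0.09). In adult rats the females had 3.71, 3.62, 3.601, 3.47 and 3.22 and the males 3.37, 2.80, 3.43, 3.08 and 2.60. Of the 5 females 4 exceeded every male (difference 0.21, SE 0.12, exact permutation p = 0.0317, limma adjusted p = 0.347), and without male replicates 2 and 5 the difference was 0.13. The brightest Mfn2 probe alone separated the adult sexes (difference 0.31, exact permutation p = 0.00794), but the other probe of the row did not (0.14, exact permutation p = 0.413). Old females had 3.001, 3.59, 3.502, 4.61 and 3.44 and old males 3.27, 3.28, 3.27, 3.802 and 3.02, and the highest value of each sex was in replicate 4. The difference at 78 weeks was 0.11 (SE 0.12), and 0.11 again without both arrays at odds.

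Opa1, the inner membrane fusion GTPase that also shapes the cristae, was 1.24, 1.30, 1.29, 1.29 and 1.36 in young females and 1.36, 1.36, 1.32, 1.33 and 1.37 in young males. Only 1 female reached into the male range (difference -0.05, SE 0.05, exact permutation p = 0.0476, limma adjusted p = 0.924), with a 1.04-fold higher mean in males. At 21 weeks Opa1 ran from 1.11 to 1.29 in females and 1.02 to 1.37 in males, and at 78 weeks from 1.04 to 1.30 and 1.12 to 1.30. The differences at these ages, 0.00 and -0.01, were below the spread of either sex, and were -0.09 without male replicates 2 and 5 of 21 weeks and -0.04 without both old arrays at odds.

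**Figure D2:**
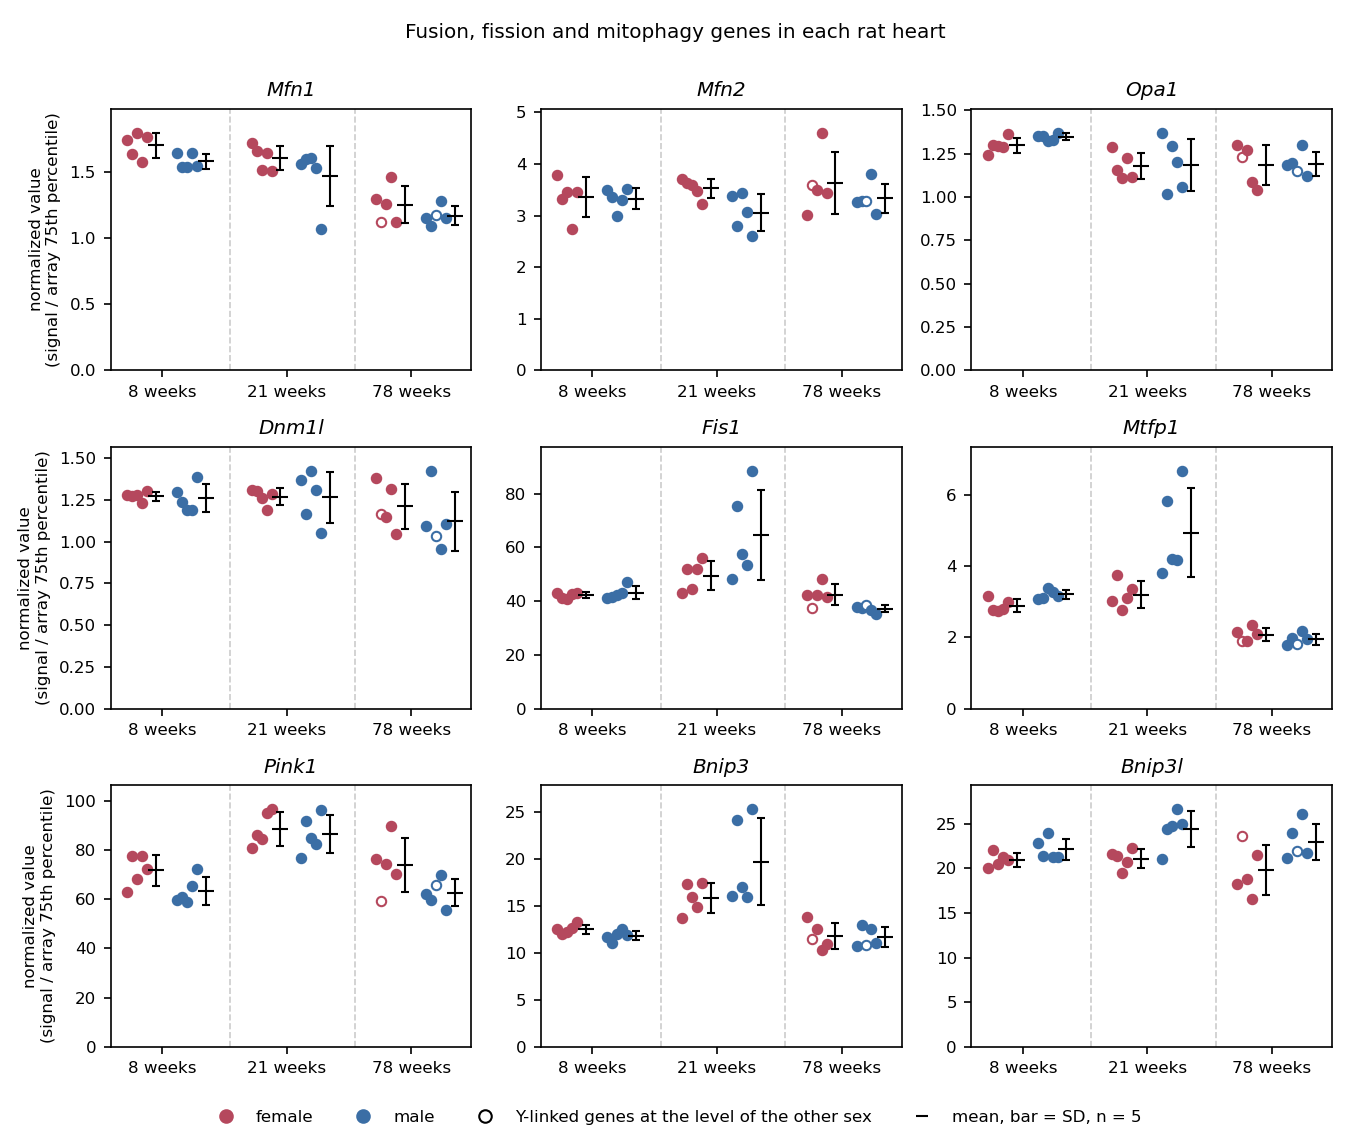
Normalized value (signal divided by that array's 75th percentile, linear axes from 0) of the 9 members above background in each rat at 8, 21 and 78 weeks, females in red and males in blue, with the mean and SD of 5 rats beside each group. Open points are the old rats labelled female replicate 2 and male replicate 3. Adult males spread most in Mtfp1, Fis1 and Bnip3, with Mtfp1 from 3.82 to 6.68, above all adult females.

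Of the fission genes, Dnm1l, the GTPase that divides mitochondria, lay at 1.23 to 1.31 in young females and 1.19 to 1.39 in young males, at 1.19 to 1.31 and 1.05 to 1.42 in adult rats, and at 1.05 to 1.38 and 0.955 to 1.42 in old rats. The differences were 0.02, 0.01 and 0.12 (SE 0.06, 0.12 and 0.13), all within the spread of the rats. Without the arrays in doubt they were -0.07 at 21 weeks and 0.10 at 78 weeks. Its brightest probe taken alone gave -0.25 at 21 weeks (exact permutation p = 0.0159), whereas the other probes of the same row gave 0.02 and 0.31.

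Fis1, an outer membrane anchor of the fission machinery, was at 41.0 to 43.2 in young females and 41.3 to 47.3 in young males, a difference of -0.03 (SE 0.06). In adult rats the females had 43.2, 51.9, 44.5, 51.8 and 56.0 and the males 48.2, 75.5, 57.4, 53.7 and 88.6, of which 2 stood far above the rest. The difference of -0.36 (SE 0.18, exact permutation p = 0.0873) was reduced to -0.07 (SE 0.13) without male replicates 2 and 5. Old females had 42.5, 37.4, 42.5, 48.2 and 41.5 and old males 38.0, 37.4, 38.6, 36.7 and 35.2. The difference there was 0.19 (SE 0.09, exact permutation p = 0.0238, limma adjusted p = 0.832), and the lowest female was the rat labelled replicate 2, whose Y-linked genes lay at the male level. Without both arrays at odds with their label every female exceeded every male, with a difference of 0.24 (SE 0.10, exact permutation p = 0.0286, the smallest that 4 against 4 allows, limma adjusted p = 0.55). At this size 3.37% of all gene names had all 4 females above all 4 males.

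Mtfp1, an inner membrane protein that promotes fission, had the largest sex difference of all members at 21 weeks. Young females had 3.16, 2.76, 2.73, 2.80 and 3.00 and young males 3.09, 3.10, 3.39, 3.28 and 3.17. The male mean was 1.11-fold higher (difference -0.15, SE 0.06, exact permutation p = 0.0238, limma adjusted p = 0.779), and 4 of 5 females lay below every male. Adult females had 3.03, 3.75, 2.76, 3.12 and 3.36, and adult males 3.82, 5.83, 4.20, 4.17 and 6.68. All 5 males exceeded all 5 females, as was the case for 2.25% of all gene names at that age.

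The adult Mtfp1 difference was -0.60 (SE 0.18), 1.51-fold higher in males, with an exact permutation p = 0.00794, the smallest that 5 against 5 allows, and a limma adjusted p = 0.244. The median of all gene names was shifted the same way, by -0.12. Both Mtfp1 probes showed it, at -0.53 and -0.64. In the scanner values male replicates 2 and 5 had 16.8 and 19.8 at the probe used for levels, against 10.1 to 11.2 in the other males and 8.11 to 10.8 in the females. Without these 2 males the difference was -0.32 (SE 0.12, unadjusted p = 0.0336, limma adjusted p = 0.591), when 7.95% of all names had an unadjusted p under 0.05. With normexp background correction, under which the median of all names was -0.22, it was -0.13. In old rats the order was not kept, with 2.14, 1.91, 1.90, 2.35 and 2.09 in females and 1.80, 1.97, 1.82, 2.19 and 1.95 in males (difference 0.09, SE 0.10, exact permutation p = 0.246, and 0.10 without both arrays at odds).

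Of the mitophagy genes, Pink1, the kinase that marks depolarized mitochondria, had 62.9, 77.6, 68.1, 77.3 and 72.2 in young females and 59.6, 60.8, 58.8, 65.2 and 72.4 in young males. The females were 1.13-fold higher on average (difference 0.18, SE 0.09, exact permutation p = 0.0714, limma adjusted p = 0.834), and 1 male lay within the upper female range. Adult rats of both sexes overlapped, at 80.7 to 96.6 in females and 76.7 to 96.3 in males (difference 0.04, SE 0.11, and 0.15 without male replicates 2 and 5). Old females had 76.3, 59.0, 74.4, 89.6 and 70.0 and old males 62.04, 59.8, 65.7, 69.9 and 55.6. The difference was 0.23 (SE 0.12, exact permutation p = 0.0794), and it was 0.33 (SE 0.13, exact permutation p = 0.0286, limma adjusted p = 0.532) without both arrays at odds with their label, when all 4 females lay above all 4 males. With normexp background correction the old difference was -0.16.

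Bnip3, a hypoxia-induced mitophagy receptor, ran from 12.0 to 13.3 in young females and 11.1 to 12.5 in young males (difference 0.08, SE 0.06, exact permutation p = 0.0556). Adult females had 13.7, 17.4, 16.0, 14.9 and 17.5 and adult males 16.1, 24.2, 17.0, 16.0 and 25.4. The difference of -0.29 (SE 0.17, exact permutation p = 0.167) rested on 2 males, since it was -0.01 (SE 0.12) without replicates 2 and 5. Old rats had 10.4 to 13.8 in females and 10.7 to 13.0 in males, a difference of 0.02 (SE 0.11), and 0.00 without both arrays at odds.

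Bnip3l (Nix), the receptor best known for clearing mitochondria from maturing red cells, lay at 20.0 to 22.0 in young females and 21.2 to 23.9 in young males (difference -0.08, SE 0.06). Adult females had 21.7, 21.3, 19.4, 20.7 and 22.3, and adult males 21.1, 24.4, 24.7, 26.7 and 25.0. Of the males 4 exceeded all females (difference -0.21, SE 0.11, exact permutation p = 0.0317, limma adjusted p = 0.331), and without male replicates 2 and 5 the difference was -0.13 (SE 0.12, limma adjusted p = 0.82). Old females had 18.3, 23.7, 18.8, 16.6 and 21.5 and old males 21.1, 23.9, 21.9, 26.1 and 21.7, a difference of -0.22 (SE 0.12, exact permutation p = 0.0714), and the highest female was the array labelled replicate 2. Without both arrays at odds with their label it was -0.31 (SE 0.13, exact permutation p = 0.0571, limma adjusted p = 0.55), with the ranges still overlapping.

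**Figure D3:**
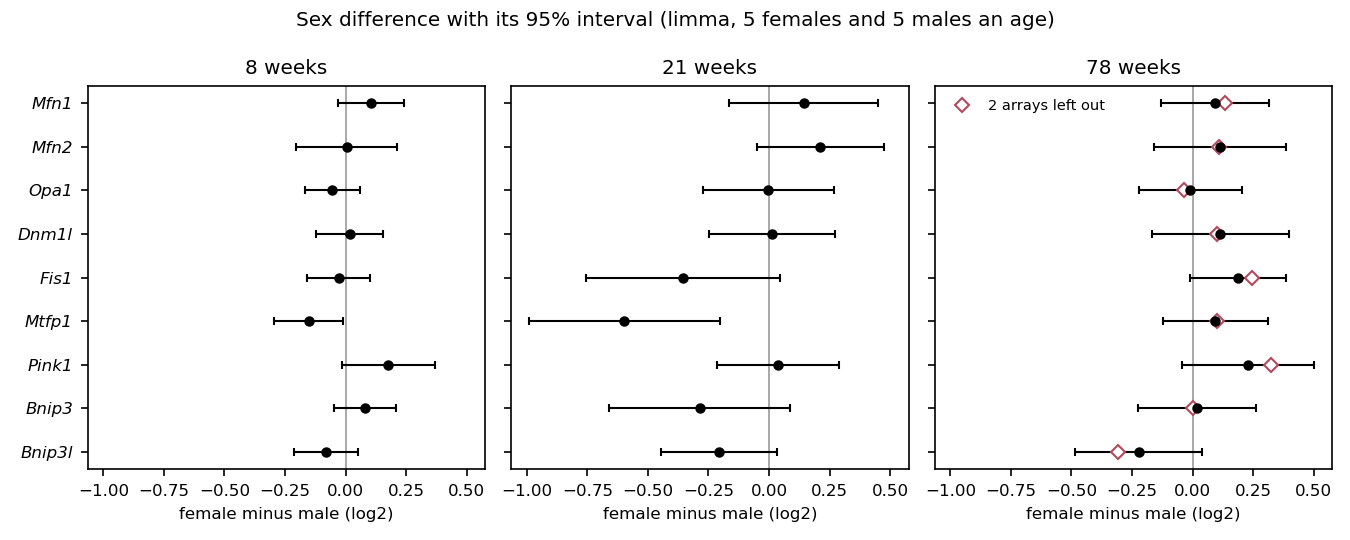
Difference between the sexes (female minus male, log2) of each member at 8, 21 and 78 weeks, points with their 95% intervals from limma over 5 females and 5 males, and open diamonds at 78 weeks for the fit without the pair of arrays at odds with the labelled sex. The interval of Mtfp1 lies below 0 at 8 and 21 weeks.

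Marker genes of other heart cell types also moved with sex. In young rats the summed level of 6 fibroblast markers was 228 to 262 in females and 271 to 305 in males (exact permutation p = 0.00794), with 3 of 6 markers at an unadjusted p under 0.05 and all of them above background. The sum of 5 erythroid markers was 17.7 to 29.6 in females and 26.1 to 41.7 in males (exact permutation p = 0.0159), with 4 of 5 at an unadjusted p under 0.05. In adult rats the sum of 6 endothelial markers was 55.9 to 76.1 in females and 29.8 to 59.9 in males (exact permutation p = 0.0238). These markers did not move together, with 1 at an unadjusted p under 0.05 each way. Kdr, an endothelial growth factor receptor, was at 0.62 and Tek at -0.48, and the mean was higher in females for 2 of the 6. The adult sum of 4 smooth muscle and pericyte markers was 11.1 to 13.9 in females and 9.77 to 13.3 in males (exact permutation p = 0.0317), and that of 6 leukocyte markers was 2.77 to 3.53 and 3.30 to 4.41 (exact permutation p = 0.0397). The adult cardiomyocyte sum ran from 1698 to 2306 in females and from 1859 to 4220 in males (exact permutation p = 0.119). Without male replicates 2 and 5 the exact permutation p was 0.125 for smooth muscle and pericyte markers, 0.0536 for leukocyte and 0.571 for cardiomyocyte markers. The row of Kdr could not be tied to a probe, so the endothelial sum was recomputed over the 5 other markers. It was 1.38 to 1.65 in females and 1.54 to 1.76 in males (exact permutation p = 0.214). These sums used the values rebuilt from the scanner files, whose scale differs from that of the table values. In old rats the sum of 5 leukocyte markers was 2.80 to 3.28 in females and 3.01 to 5.08 in males (exact permutation p = 0.0159). Of these 5 markers 2 had an unadjusted p under 0.05, both higher in males, but 2 had a higher mean in females. Only 2 were well above background on all arrays. The old fibroblast sum was 89.9 to 150 in females and 120 to 175 in males (exact permutation p = 0.111), with 1 of 6 markers at an unadjusted p under 0.05. Without both arrays at odds with their label it was 89.9 to 135 and 154 to 175 (exact permutation p = 0.0286), with 5 of 6 such markers. The leukocyte ranges then stayed as they were (exact permutation p = 0.0571). Sums of all cell types examined were tested at each age, unadjusted, and most of those printed had an exact permutation p under 0.05. No marker was called after adjustment, and the part of these cells in the differences of the members was not tested.

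The wider pathways were examined through 8 lists with 104 measured genes, and limma called 0 of them between the sexes at each age. At 8 weeks 5 of 104 (4.81%) had an unadjusted p under 0.05, against a background of 6.19%, 4 higher in females and 1 in males. Ddit4, a hypoxia-inducible inhibitor of mTORC1, differed by 0.40 (SE 0.11, limma adjusted p = 0.476), and the FoxO list had the muscle ubiquitin ligase Trim63 at 0.18 and the glucocorticoid-responsive factor Klf15 at 0.35. In general autophagy the LC3 gene Map1lc3a differed by 0.15 and the late endosome GTPase Rab7a by -0.13, and among fission regulators the phosphatase subunit Ppp2r2b, which targets PP2A to Dnm1l, by -0.27. In the remaining lists the genes with the smallest p were Spg7 at -0.11 and Parl at -0.04 (inner membrane proteases), Fkbp8 at -0.21 and Optn at 0.11 (a mitophagy receptor and an adaptor), Chchd2 and Chchd6 both at 0.07, and the transport genes Trak1 at 0.10 and Kif5b at 0.04. Adm, a second hypoxia-inducible gene, stood at 0.20. Gdap1 was above background on 1 of 10 arrays and is given no fold.

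At 21 weeks 15 of 104 listed genes (14.4%) had an unadjusted p under 0.05, 3 higher in females and 12 in males, against a background of 16.8%. Without male replicates 2 and 5 it was 2 of 104 (1.92%), against 7.95%, and the values that follow are those with all males. The prohibitin Phb and its inner membrane partner Stoml2, which hold protease complexes, were at -0.58 and -0.41, and the mitophagy receptors Fkbp8 and Fundc1 at -0.46 and -0.43. Map1lc3b and Atg12 of the autophagosome conjugation systems were at -0.40 and -0.36, and Apool and Mtx2 of the cristae and outer membrane assembly list at -0.41 and -0.40. Pdk1 and Hmox1 of the hypoxia list were at -0.54 and -0.40, and Trak1, which links mitochondria to kinesin, was at 0.52. The ligase Mul1 at -0.26, Foxo4 and Cited2 at -0.57 and -0.13 and the kinesin Kif5b at 0.25 had the smallest p left in their lists, but none of these had an unadjusted p under 0.05. The other 2 genes higher in females, named after their values were seen, were the matrix protease gene Lonp1 at 0.32 and Hif1a at 0.30. The smallest limma adjusted p among these 104 genes was 0.248.

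At 78 weeks 2 of 104 listed genes (1.92%) had an unadjusted p under 0.05, against a background of 5.87%, both higher in males, namely Ppp2r2b at -1.02 (SE 0.41) and the autophagy adaptor Calcoco2 at -0.45 (SE 0.18). Every limma adjusted p was at or above 0.832. Without both arrays at odds with their label 5 of 104 (4.81%) had an unadjusted p under 0.05, against 8.83%, 2 higher in females and 3 in males, and none was called. Of the next genes in each list, Fundc2 was at 0.36, Parl and Phb2 at 0.15 and 0.20, Mtfr1 at 0.13, Atg12 and Atg10 at 0.20 and 0.22, Apoo and Samm50 at 0.16 and 0.18, Rhot2 and Rhot1 at 0.19 and 0.21, Pgk1 at 0.19, Trim63 at 0.18 and Klf15 at 0.29. Hmox1 lay at -0.34.

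Levels at 8 and 78 weeks were compared on the scanner values, since the table of each age was scaled separately. Mfn1 and Mtfp1 were lower and Mfn2 was higher at 78 weeks. limma called 3 of 10 members at an adjusted p under 0.05, 2 lower and 1 higher, where it called 13.4% of all gene names, 6.61% lower and 6.82% higher. With a filter on dim probes it called 3384 of 16243 names. The ages overlapped in all 9 members above background, whereas 2.78% of all names did not overlap, and 4 members had an unadjusted p under 0.05 (26.7% of all names). The median of all names was 0.04 higher at 78 weeks. Age and the processing batch named in the study's methods cannot be told apart, but the ages shared 1 of the 8 slides, which held the 8-week female and male of replicate 5 and the 78-week female and male of replicate 1. With slide as a fixed block, so that this slide alone carries the age difference, limma called 0 of 10 members (0.797% of all names), and the 3 directions were those of the fit over all slides, of which it is a part. With the old arrays of the second scan day left out, a choice made after seeing the data that leaves 6 old rats, the same 3 members were called, Mtfp1 at -0.51 (limma adjusted p = 0.00512), Mfn1 at -0.37 (limma adjusted p = 0.0264) and Mfn2 at 0.22 (limma adjusted p = 0.0309).

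Mtfp1 had levels of 8.24, 6.96, 6.92, 6.86 and 7.76 in young females, 8.05, 7.78, 8.87, 8.29 and 8.37 in young males, 6.13, 5.19, 5.67, 7.10 and 6.21 in old females and 5.35, 5.35, 5.07, 6.97 and 5.74 in old males. All old rats except the replicate 4 rats of both sexes lay below every young rat. The difference, 78 minus 8 weeks, was -0.41 (SE 0.10, limma adjusted p = 0.0071), 1.33-fold lower, and the other Mtfp1 probe gave -0.58. On the shared slide Mtfp1 was 7.76 and 8.37 in the young female and male and 6.13 and 5.35 in the old ones, a difference of -0.49 (limma adjusted p = 0.435 with the fixed block).

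Mfn1 had levels of 9.05, 8.31, 8.25, 8.17 and 8.60 in young females, 7.47, 7.66, 8.06, 8.01 and 7.599 in young males, 6.83, 6.23, 6.85, 8.46 and 5.71 in old females and 5.74, 6.01, 6.03, 7.81 and 5.72 in old males. Here too the replicate 4 rats alone reached into the young range. The difference was -0.32 (SE 0.10, limma adjusted p = 0.0328), 1.25-fold lower, and -0.35 in the other probe. Leaving out any one of 9 rats moved the limma adjusted p to between 0.0516 and 0.0677. On the shared slide Mfn1 was 8.60 and 7.599 in the young pair and 6.83 and 5.74 in the old pair, a difference of -0.37. The replicate 4 arrays of old females and males deviated more from their groups over all probes than the other old arrays, by a median of 0.267 and 0.224 log2 against 0.0751 to 0.117.

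Mfn2 had levels of 55.3, 56.1, 54.7, 46.5 and 54.9 in young females, 54.4, 51.7, 47.8, 48.3 and 56.9 in young males, 64.3, 61.0, 63.5, 74.3 and 64.2 in old females and 55.8, 65.1, 59.1, 58.9 and 53.4 in old males. All 5 old females and 3 of 5 old males exceeded every young rat. The difference was 0.23 (SE 0.06, limma adjusted p = 0.0101), 1.17-fold higher. It was not called with raw median signal (limma adjusted p = 0.0565), with the mean of all probes of the name (limma adjusted p = 0.0731), in females alone (limma adjusted p = 0.0818) or in males alone (limma adjusted p = 0.408). The second minus-strand probe, which crosses an intron, gave 0.08, and on the shared slide the difference was 0.10, with the old male at 55.8 and the young male at 56.9. With normexp background correction, which moved the median of all names to 0.26, Mfn2 was at -0.29, while Mfn1 and Mtfp1 stayed negative at -0.73 and -0.83, and none of the 3 was called.

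**Figure D4:**
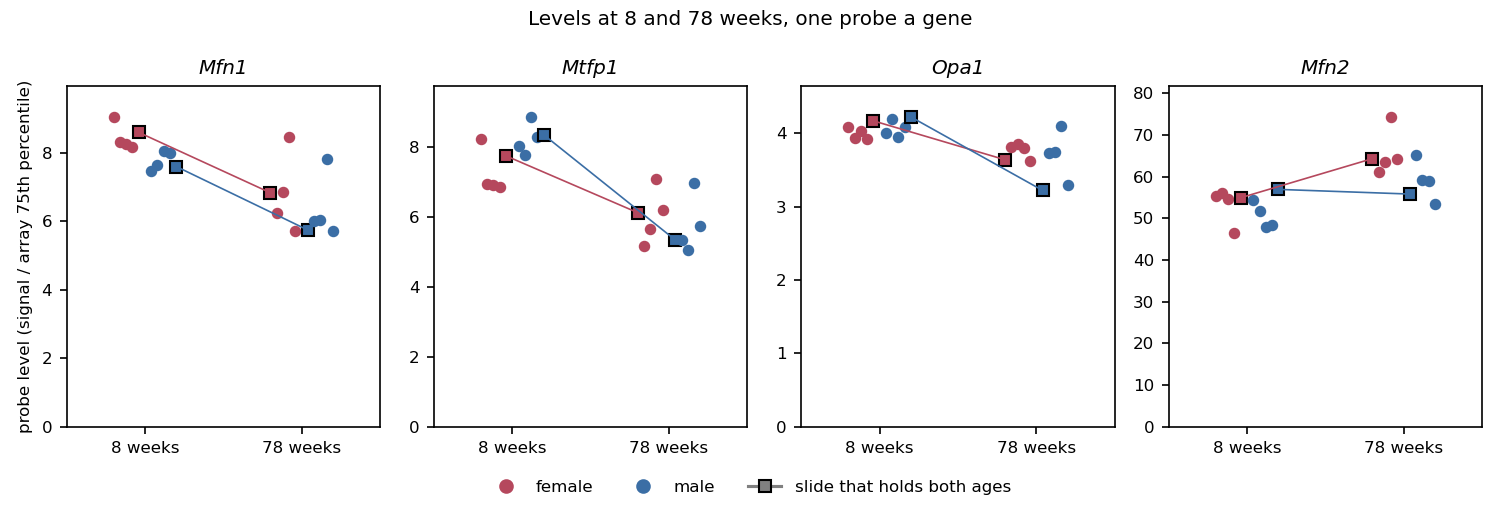
Level of Mfn1, Mtfp1, Opa1 and Mfn2 (signal divided by that array's 75th percentile, 1 probe per gene, linear axes from 0) in each rat at 8 and 78 weeks, females in red and males in blue. Squares joined by lines are the rats on the slide that held both ages, where Mfn1, Mtfp1 and Opa1 were lower in both old rats and Mfn2 was higher in the female only.

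The other members did not pass the adjusted test between 8 and 78 weeks. Opa1 was at 3.92 to 4.22 in young rats and 3.22 to 4.11 in old rats, with 9 of 10 old rats below every young rat (difference -0.14, SE 0.05, limma adjusted p = 0.0745), but its second probe gave 0.04. Dnm1l differed by 0.11 (SE 0.09) at one probe and by -0.09 at each of the other 2. Fis1 differed by 0.00 (SE 0.09), Pink1 by 0.11 (SE 0.08), Bnip3 by 0.05 (SE 0.09) and Bnip3l by 0.08 (SE 0.07). Adult levels, from slides that held no other age, are given without a test. Their medians were 10.3 for Mtfp1, 84.7 for Fis1, 26.7 for Bnip3 and 139 for Pink1, against 7.92, 68.0, 19.6 and 106 at 8 weeks and 5.71, 65.4, 19.3 and 116 at 78 weeks.

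The sex difference changed with age in 0 of 10 members in limma's interaction test, which called 0.00405% of all names. At an unadjusted p under 0.05, which 12.9% of all names had, there were 2 members, Fis1 (limma adjusted p = 0.306) and Mtfp1 (limma adjusted p = 0.315). Both had their largest male excess at 21 weeks, where male replicates 2 and 5 stood apart, and without those males limma again called 0 members.

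Of the 104 genes on the lists, 22 (21.2%) were called between 8 and 78 weeks, 12 higher and 10 lower at 78 weeks, against 13.4% of all names. Most listed genes were well above background on all arrays, and with a filter on dim probes limma called 3384 of 16243 names. All 22 called genes had the same sign on the slide that held both ages, whose arrays are also part of the fit. Among the proteases that process Opa1, Oma1 was higher by 0.27 and Yme1l1 lower by 0.28 on the log2 scale, with 1 gene called each way of 10. Of 18 mitophagy adaptors and ubiquitin enzymes, the ubiquitin-binding adaptors Sqstm1 and Optn were higher by 0.54 (limma adjusted p = 0.00234) and 0.35 (limma adjusted p = 7.24e-05), and Bnip1 differed by -0.52 (limma adjusted p = 0.00357). None of 13 fission regulators was called, and those nearest were Dnm2, a dynamin of the late scission step, at -0.18 (limma adjusted p = 0.0558), and Gdap1, which was above background on 1 of 30 arrays and is given no fold.

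Of 24 general autophagy genes 4 were called higher and 2 lower at 78 weeks. The LC3 family genes Gabarapl1 and Map1lc3b rose by 0.37 (SE 0.09) and 0.27 (SE 0.09), the class III kinase subunit Becn1 by 0.20 (SE 0.05) and the ULK complex subunit Atg13 by 0.30 (SE 0.08). The kinase Ulk1, which starts autophagosome formation, was at -0.43 (SE 0.12) and the lysosomal transcription factor Tfeb at -0.23 (SE 0.06). The cristae subunit Chchd3 and the outer membrane protein Mtx2 were lower, at -0.38 and -0.25, among 9 genes, and of 5 transport genes the adaptor Trak1 was at -0.46 and the kinesin Kif5b at 0.26.

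Of 16 hypoxia-inducible genes, a class to which Bnip3 also belongs, 2 were called each way. Hmox1, which degrades haem, and the vasodilator peptide gene Adm were higher by 0.50 and 0.46, whereas Hif1a itself and Vegfa were at -0.25 and -0.26. Of 9 FoxO factors and targets, the catalase gene Cat and Cited2 were higher by 0.32 and 0.33, and Trim63 was at -0.29. The medians of the 8 lists lay between -0.09 and 0.26, with all gene names at 0.04, and the highest was that of the FoxO list.

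**Figure D5:**
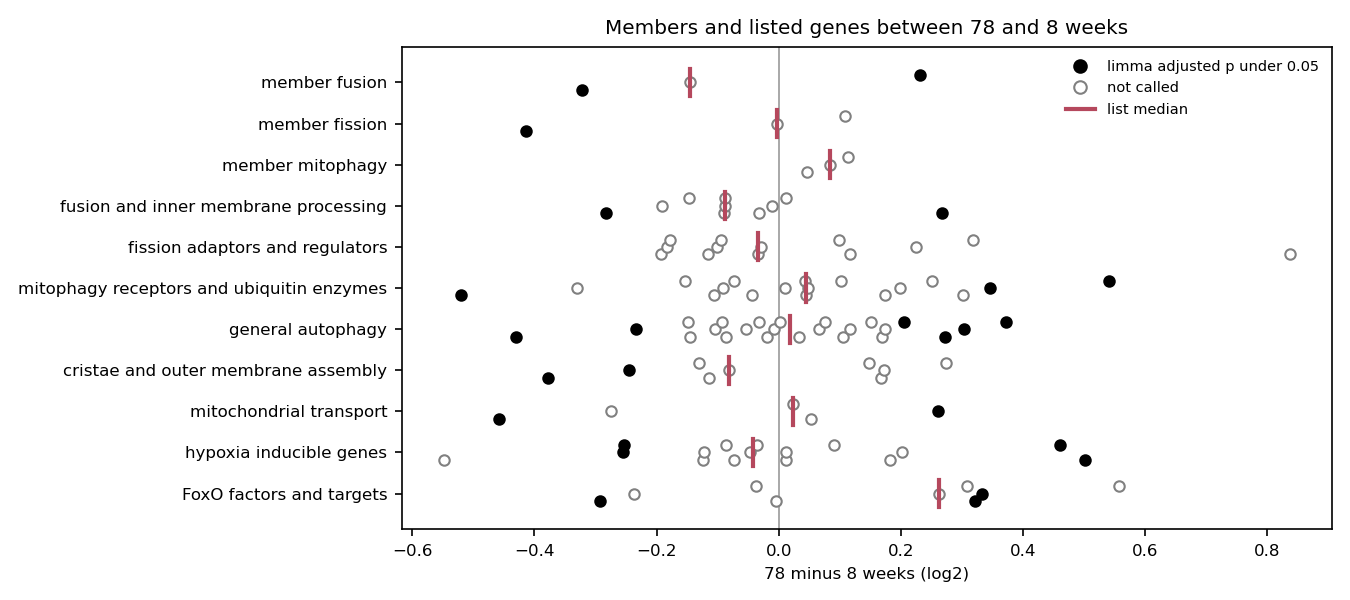
Difference between 78 and 8 weeks (log2) of the members, by role, and of the genes of 8 lists, with 1 point per gene, filled where limma's adjusted p was under 0.05, and a red bar at the list median over genes above background on at least 1 array. Called genes lie on both sides of 0 in 6 of the 8 lists, with both called cristae genes below 0 and no called gene among the fission regulators.

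Markers of other cell types differed between these ages as well. The summed level of 6 fibroblast markers was 461 to 577 in young rats and 187 to 393 in old rats, with the collagen genes Col3a1 and Col1a1 called at -1.41 and -0.67. The endothelial junction and receptor genes Cdh5 and Tie1 were called at -0.63 and -0.71, although the sum of 5 endothelial markers was 12.4 to 14.2 at 8 weeks and 13.4 to 17.5 at 78 weeks. Cardiomyocyte sums were 2059 to 2902 and 2471 to 3502, the pericyte genes Rgs5 and Pdgfrb were at -0.40 and -0.34, and the macrophage gene Cd68 was at 0.39. These are called genes, and their lists did not move together. The mean was lower at 78 weeks in 4 of 6 fibroblast, 3 of 5 endothelial, 2 of 4 smooth muscle and pericyte and 3 of 6 leukocyte markers. In the other lists 1 of 8 cardiomyocyte markers was called lower, and 1 each of 5 erythroid, 6 adipocyte and 6 skeletal muscle markers higher. The part of these cells in the age differences of Mfn1, Mfn2 and Mtfp1 was not tested.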

How the data were processed

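Whole-heart RNA of 30 rats was hybridised to single-colour Cy3 arrays with 4 arrays per slide and quantified with Agilent Feature Extraction, per the submitters' processing notes. The authors deposited 1 table per age, in which intensity was averaged over the probes of each target, so that a gene name may have several rows, filtered for expression and scaled by the array's own 75th percentile. They also deposited the scanner intensity files, whose processed signal is background-subtracted, and its flags. Recomputing the table values from these files matched 99.8% of the rows to within 0.002 log2.

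Sex was tested within each table on log2 values with limma 3.58.1 (R 4.3.3), 1 row per name, with Benjamini-Hochberg adjustment over all names of the table and a threshold of 0.05. Age and its interaction with sex were tested on log2 processed signal minus the 75th percentile of the array, 1 probe for each of 24720 names, with slide as a random block (correlation 0.0111). For Bnip3l, 2 spots with an outlier flag were left out of the age fit, and for this gene it holds 9 rats at 8 weeks, 9 at 21 weeks and 10 at 78 weeks. The number of arrays limits the precision, and no source says that rats of a number are related. At 78 weeks, however, females and males with the same number deviated together (correlations 0.19 to 0.31, 5 of 5 pairs), so they were treated as paired in an alternative fit. Same-numbered females and males also shared a slide and a scan day, and the part of slide and scan day in these correlations was not tested. Other alternatives were the first row or mean of a name, the methods' t-test, normexp (offset 50), raw median signal, quantile normalization, a filter on dim rows, slide as a fixed block, and each rat left out in turn.

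The genes and lists were chosen with earlier results of these data known. Named genes were the 10 members, each list's called genes or, where there were none, the pair with the smallest p, and Ddx3y and Eif2s3y. Mief1, Mief2 and Inf2 were found under older names, and Pld6, Mtfr2, March5, Bcl2l13 and Letm1 had no row.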

Additional observations from a re-analysis of the deposited data

Results flagged for a closer look

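Mfn1 in adult males held a lone low value. It was 1.07 in 1 male and 1.53 to 1.60 in the other 4, and in the scanner values the low male was replicate 5, one of the 2 adult males that stood apart in other members. In the table values the gap was 0.885 of the range of the group, above Dixon's critical value of 0.71 for 5 samples. Of 54 groups of 5 rats examined in this way 1 was picked out, and chance picks out about 5% of such groups.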

How the results depend on the processing

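The number of members called between the sexes was 0 at each age under every setting tried, and that of members whose sex difference changed with age was 0 as well. Of 405 differences of single members recomputed under settings other than leaving out a rat, 36 changed sign, 14 lost and 1 gained a call.

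Between 78 and 8 weeks, 3 members were called, and 0 with slide as a fixed block, with normexp, in females only or in males only, and 2 to 4 with 1 rat left out. Leaving out any 1 of 9 rats ended the call of Mfn1 (limma adjusted p 0.0516 to 0.0677), as did leaving out the pair of arrays at odds with the labelled sex (limma adjusted p = 0.0817). Opa1 was called without male replicate 4 of 78 weeks (limma adjusted p = 0.0298) and with a filter on dim probes (limma adjusted p = 0.0472). Mfn2 was not called with raw median signal (limma adjusted p = 0.0565) or with the mean of all its probes (limma adjusted p = 0.0731). With normexp the age differences turned to -0.29 for Mfn2, -0.20 for Dnm1l, -0.37 for Pink1, -0.44 for Bnip3 and -0.45 for Bnip3l. Fis1 turned to 0.11 in females only and 0.0146 without the pair of arrays at odds, and ran from -0.0291 to 0.0204 with 1 rat left out.

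With normexp the 21-week sex differences turned to 0.18 for Opa1, 0.35 for Fis1, 0.41 for Bnip3 and 0.50 for Bnip3l, and the 78-week ones to -0.0587 for Mfn1, -0.0775 for Mfn2, -0.0301 for Dnm1l, -0.0820 for Fis1, -0.16 for Mtfp1, -0.16 for Pink1 and -0.36 for Bnip3. At 21 weeks Opa1 turned to 0.0779 with raw median signal, 0.0112 with quantile normalization and 0.0510 at its brightest probe, and Dnm1l to -0.55 on its first row, -0.27 with the mean of rows, -0.25 at its brightest probe and -0.0732 without male replicates 2 and 5. At 78 weeks the first row gave -0.00522 for Mfn2, -0.20 for Dnm1l and -0.0664 for Bnip3, the mean of rows -0.0408 for Dnm1l, quantile normalization -0.0190 for Bnip3, and the brightest probe 0.0542 for Opa1 and -0.00629 for Dnm1l. The first rows of Dnm1l and Bnip3 were well above background on 0 of 30 arrays, so their differences are between background values, which the mean of rows includes. The causes were not tested.

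With 1 rat left out, sex differences that changed sign ran at 8 weeks from -0.0422 to 0.0759 for Mfn2, -0.00398 to 0.0519 for Dnm1l and -0.0444 to 0.00462 for Fis1, at 21 weeks from -0.0402 to 0.0612 for Opa1 and -0.0254 to 0.0673 for Dnm1l, and at 78 weeks from -0.0447 to 0.0368 for Opa1 and -0.0394 to 0.0652 for Bnip3. With the replicate block, or slide as a fixed block, Opa1 turned to 0.0103 at 21 weeks and 0.00998 at 78 weeks. At 78 weeks, where same-numbered rats deviated together, the replicate block gave 0 called members and 1 at an unadjusted p under 0.05, Pink1 at 0.25 (limma adjusted p = 0.682), and it changed no other call. Correlations of same-numbered rats were -0.23 to 0.16 at 8 weeks and -0.19 to 0.48 at 21 weeks, where the number was not taken as a pairing, and the block there also gave 0 called members.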
